A study of Mus musculus with 4 samples.

Results

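Semaphorins, plexins, neuropilins, ephrins and Eph receptors are families of guidance signals and their receptors. Their transcripts were followed here in cultured melanocytes, which make the pigment of skin and hair. The mice had or lacked the aryl hydrocarbon receptor (AhR), a transcription factor activated by dioxins and related ligands. Members were taken from the gene symbols of the array annotation: every symbol that begins with Sema and a digit, every Plxn, Nrp1 and Nrp2, every ephrin A or B (Efna, Efnb) and every Epha or Ephb. The rule found 45 genes among 12393 genes with a probe set, and each was represented by its brightest probe set over the 4 arrays. Of these 45 genes, 24 had a mean signal over 76 and were tested, and 21 lay below that level. The cells were ex vivo cultivated melanocytes grown from tail epidermis of female mice for 6 to 8 weeks in serum-free medium and passaged when confluent. Wild-type cells came from 2 C57Bl/6 mice. AhR knockout cells came from 2 mice of the strain AhRtm1Bra, in which exon 2 of Ahr is deleted in the whole animal. For the age of the mice and the backcross of the knockout strain, nothing is given in the sources used here. Every array stands for a different animal (n = 2 in both groups).

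Semaphorins are secreted (class 3 in mammals) or held in the membrane (classes 4 to 7). They signal through plexins, receptors whose inner part acts on small GTPases and so on adhesion and the actin skeleton. Most class 3 semaphorins also need a neuropilin to bind, and Sema3e is the known exception that binds plexin D1 directly. Ephrins are membrane-bound ligands of Eph receptors, the largest family of receptor tyrosine kinases, and signal into both touching cells. Melanocytes arise from migrating neural crest cells, which are steered by these families, and semaphorin 7A has been studied in them for its effect on adhesion and dendrite growth.

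Array signals carry no count depth, and the small number of arrays limits the precision. An exact permutation test of 2 against 2 arrays cannot give a p below 0.333, so p-values come from the limma model fitted to all 7543 genes with mean signal over 76. Differences are given as AhR knockout minus wild type on the log2(signal + 16) scale, with the standard error (SE) from limma, and the folds of dim genes are understated on that scale. The targeted gene had a signal of 825 and 874 on the wild-type arrays, 241 on AhR knockout 1 and 843 on AhR knockout 2 (brighter Ahr probe set). Its place relative to exon 2 was not analysed here, so it checks no label. RNA quality, as the Gapdh 3'/5' signal ratio, was alike on 3 arrays (1.98 to 2.85), while AhR knockout 2 stood apart at 11.9. Melanocyte markers were bright on all arrays. All 9 measured markers, among them Tyr, Tyrp1, Dct, Pmel and Sox10, were over the signal level of 76. Markers of other cells were present too. The 15 measured blood endothelial markers summed to a signal of 26320 and 28050 in wild type against 17190 and 7109 in AhR knockout 1 and 2. In bulk RNA, fewer cells of a type and less RNA per cell cannot be told apart.

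**Figure D1:**
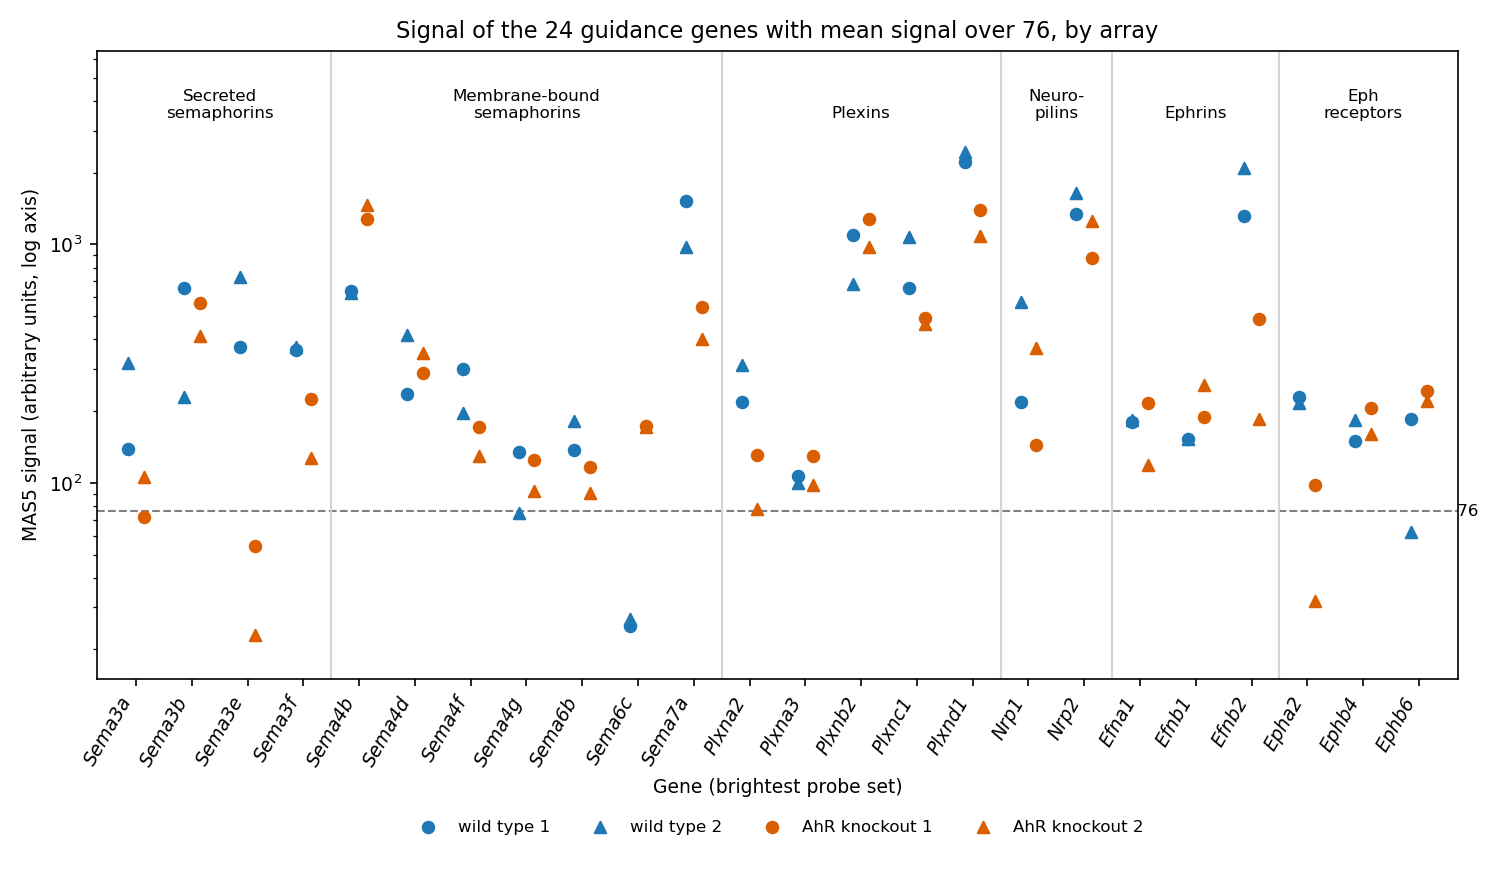
MAS5 signal (log axis) of the 24 guidance genes with mean signal over 76, each point an array, wild type in blue and AhR knockout in orange. Signals of different genes are not on a common scale. Sema3e, Sema7a and Efnb2 show both knockout arrays below both wild-type arrays, and Sema4b and Sema6c show them above.

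Sema3e fell and Sema6c rose in AhR knockout cells, and these were the members that passed the test. Among the 24 tested members, 2 were called at an adjusted p under 0.05 (limma, Benjamini-Hochberg over all tested genes), against a background of 0.968% of all genes tested. The share of all genes that rose was 0.225%, and the share that fell was 0.742%. Of the 24, 14 were lower and 10 higher in the knockout, with a median log2 difference of -0.53 against 0.0067 for all genes tested. Each knockout array alone gave a similar median, -0.43 for the first and -0.40 for the second. The groups did not overlap for 16 of the 24 members (66.7%), against 55.3% of all genes tested. Both knockout arrays lay below both wild-type arrays for 12 members, against 26.6% of all genes, and above them for 4 members, against 28.7%. A total of 9 members had groups that did not overlap and differed at least 2-fold, against 14.6% of all genes. Of these 7 were lower, against 10.2%, and 2 higher, against 4.39%. These counts lean on the signal filter. The knockout mean of Sema3e (38.6) and of Epha2 (64.7) was under the level, though Epha2 read 97.4 on AhR knockout 1. The wild-type mean of Sema6c (25.9) was under it too. Each passed through the mean of its other group alone, so these had to differ to be counted.

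**Figure D2:**
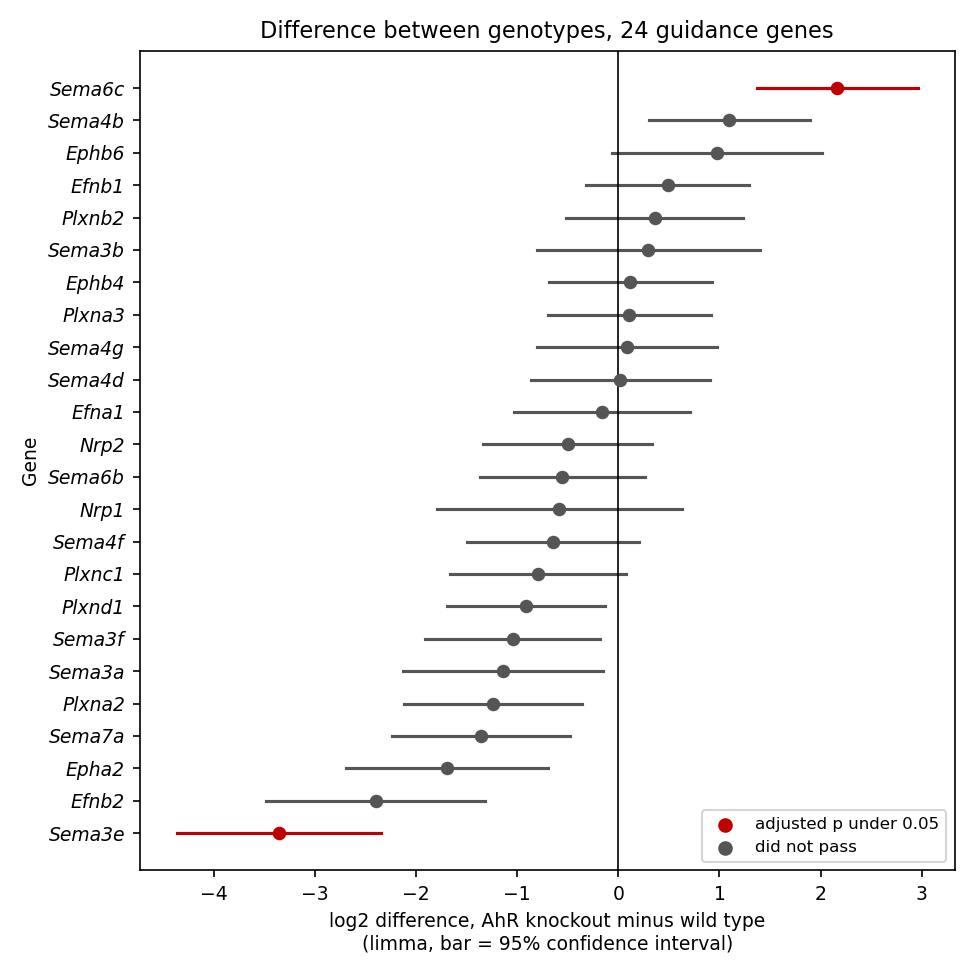
Log2 difference of each of the 24 tested guidance genes, AhR knockout minus wild type (n = 2 and 2), with the 95% confidence interval from limma. Sema3e at -3.36 and Sema6c at 2.17, in red, passed the test, and the interval of 14 genes includes 0.

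Of the 4 tested secreted semaphorins 3 were lower in the knockout, and Sema3e alone passed the test. Sema3e, a repulsive signal for growing vessels and axons, read 371 and 728 in wild type against 54.4 and 22.9 in AhR knockout 1 and 2. Both knockout arrays were far below both wild-type arrays, a log2 difference of -3.36 ± 0.45 (SE; adjusted p = 0.0198). A second probe set of Sema3e read 121 and 183 in wild type against 3.39 and 5.02 in the knockout. With every probe set tested by itself it passed in limma as well, with adjusted p = 0.0357. Its mean of 78.3 was over the signal level through the wild-type arrays alone, so this probe set had to differ to be tested. The third, dimmest probe set read 30.3 and 26.0 against 4.19 and 30.1, so its groups overlapped. The Sema3e difference was -2.93 against AhR knockout 1 alone and -3.79 against AhR knockout 2 alone. Without the filter on low signals Sema3e did not pass, with adjusted p = 0.187, and it was too dim to be tested among the top 40% of genes.

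Sema3f, a ligand of neuropilin 2 that repels endothelial and tumour cells, read 362 and 371 in wild type against 224 and 127 in the knockout. The groups did not overlap, but the difference of -1.05 ± 0.39 did not pass, with adjusted p = 0.179. Its dimmer probe set disagreed, at 93.3 and 98.5 in wild type against 71.9 and 128 in the knockout. Sema3a, the collapsin that binds neuropilin 1 with class A plexins, read 139 and 318 in wild type against 71.7 and 105 in the knockout. Here too the groups did not overlap, and the difference of -1.14 ± 0.44 did not pass, with adjusted p = 0.191. The wild-type arrays differed more than 2-fold between themselves, so their spread is as wide as the gap between genotypes. Sema3b had 659 and 228 in wild type against 566 and 411 in the knockout. Its knockout values lay between the wild-type values, and the sign of its difference (0.30 ± 0.49) turned to -0.44 without wild type 2. Sema3c had a mean of 35.6 and was not tested.

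Promoters are shown for the members that differed at least 2-fold without overlap, whether or not they passed the test, where RefSeq has an entry. The letters GCGTG, the core of the element that the AhR complex is known to bind, were searched on both strands of RefSeq promoters (GRCm38.p6, 250 bases before to 50 after the start), and matches that share letters were counted separately. Of the 45 members, 40 had an entry, and Efnb3, Plxna1, Sema3b, Sema3f and Sema6a had none. Where a gene has several entries, the one with the lowest coordinate is shown. Capitals mark each match on either strand.
Sema3e, chr5:14025026-14025325, plus strand, 0 matches: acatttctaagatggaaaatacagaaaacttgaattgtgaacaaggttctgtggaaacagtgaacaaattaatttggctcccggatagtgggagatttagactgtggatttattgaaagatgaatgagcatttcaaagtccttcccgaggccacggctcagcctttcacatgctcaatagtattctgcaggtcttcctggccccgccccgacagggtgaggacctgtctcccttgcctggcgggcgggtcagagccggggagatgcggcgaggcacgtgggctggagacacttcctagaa
Efnb2, chr8:8661193-8661492, minus strand, 0 matches: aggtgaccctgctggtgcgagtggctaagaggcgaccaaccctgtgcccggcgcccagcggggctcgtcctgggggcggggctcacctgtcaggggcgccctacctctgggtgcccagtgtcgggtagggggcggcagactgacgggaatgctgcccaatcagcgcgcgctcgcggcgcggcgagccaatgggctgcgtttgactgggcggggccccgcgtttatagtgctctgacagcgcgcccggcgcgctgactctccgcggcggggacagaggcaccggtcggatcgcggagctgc
Epha2, chr4:141300971-141301270, plus strand, 2 matches: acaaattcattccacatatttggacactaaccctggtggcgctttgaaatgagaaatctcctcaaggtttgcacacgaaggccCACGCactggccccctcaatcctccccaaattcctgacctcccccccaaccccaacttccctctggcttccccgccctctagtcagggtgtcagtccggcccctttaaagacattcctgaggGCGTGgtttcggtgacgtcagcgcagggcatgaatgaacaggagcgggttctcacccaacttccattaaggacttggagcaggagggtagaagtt
Sema7a, chr9:57939862-57940161, plus strand, 1 match: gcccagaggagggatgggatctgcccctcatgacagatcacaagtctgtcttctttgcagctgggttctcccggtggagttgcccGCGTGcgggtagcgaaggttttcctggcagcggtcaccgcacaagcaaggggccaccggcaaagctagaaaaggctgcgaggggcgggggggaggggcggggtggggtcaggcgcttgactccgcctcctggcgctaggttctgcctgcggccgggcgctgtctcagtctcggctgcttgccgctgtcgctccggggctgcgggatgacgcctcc
Plxna2, chr1:194619579-194619878, plus strand, 1 match: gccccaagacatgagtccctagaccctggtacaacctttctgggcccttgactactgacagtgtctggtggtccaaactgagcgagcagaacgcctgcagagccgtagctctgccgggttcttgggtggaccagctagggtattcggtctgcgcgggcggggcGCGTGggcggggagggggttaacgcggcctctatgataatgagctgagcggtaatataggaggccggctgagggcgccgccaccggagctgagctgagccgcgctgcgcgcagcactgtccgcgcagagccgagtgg
Sema3a, chr5:13396534-13396833, plus strand, 0 matches: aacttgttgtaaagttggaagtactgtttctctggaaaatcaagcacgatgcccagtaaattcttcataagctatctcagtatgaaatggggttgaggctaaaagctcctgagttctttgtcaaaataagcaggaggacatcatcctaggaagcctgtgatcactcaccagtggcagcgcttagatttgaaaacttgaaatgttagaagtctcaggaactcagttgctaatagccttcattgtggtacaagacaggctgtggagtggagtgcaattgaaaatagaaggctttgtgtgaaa
Sema4b, chr7:80186620-80186919, plus strand, 0 matches: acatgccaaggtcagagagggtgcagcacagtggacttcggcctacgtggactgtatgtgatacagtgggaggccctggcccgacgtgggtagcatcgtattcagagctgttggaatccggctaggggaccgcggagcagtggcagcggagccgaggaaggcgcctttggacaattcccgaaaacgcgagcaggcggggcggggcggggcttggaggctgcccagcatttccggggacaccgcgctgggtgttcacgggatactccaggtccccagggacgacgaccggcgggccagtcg
Sema6c, chr3:95160170-95160469, plus strand, 1 match: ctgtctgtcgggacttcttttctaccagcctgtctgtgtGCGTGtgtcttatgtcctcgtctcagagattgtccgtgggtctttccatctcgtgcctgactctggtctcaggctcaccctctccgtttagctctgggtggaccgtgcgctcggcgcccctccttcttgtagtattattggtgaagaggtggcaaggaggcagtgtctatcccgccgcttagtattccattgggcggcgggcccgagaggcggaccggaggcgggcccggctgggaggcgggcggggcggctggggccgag
The letters were found in at least 1 promoter of 14 of the 22 tested members with an entry (63.6%), against 59.3% of 6180 tested genes with an entry. Of single promoters of this length in the whole table, 32.4% of 32851 held them. Among the members that were at least 2-fold lower without overlap, 3 of the 6 with an entry held a match, and among those higher, 1 of 2 did. The second listed promoter of Sema6c also held 1 match, and that of Sema4b held 0. The share among the members is near that of all tested genes. A match is a run of letters and not evidence of binding, and a window with 0 matches says only that these letters are not in it.

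None of the receptors of class 3 ligands passed the test, and the clearest separation was that of Plxnd1 and Plxna2. Plxnd1, the receptor of Sema3e, known from vessel patterning, read 2229 and 2452 in wild type against 1392 and 1090 in the knockout. Both knockout arrays were lower, and the difference of -0.92 ± 0.35 did not pass, with adjusted p = 0.188 and a 95% interval from -1.70 to -0.13. Nrp2, a co-receptor for Sema3f and for lymphatic growth factors, read 1346 and 1649 in wild type against 877 and 1250 in the knockout, with a difference of -0.50 ± 0.37. Nrp1, the co-receptor for Sema3a and for vascular growth factor, read 218 and 576 in wild type against 145 and 369 in the knockout, and the groups overlapped. Its difference of -0.58 ± 0.54 was 0.049 without AhR knockout 1 and -1.21 without AhR knockout 2. A second Nrp1 probe set read 124 and 144 in wild type against 40.2 and 201 in the knockout, low in AhR knockout 1 alone.

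Of the class A plexins that pair with neuropilins, none passed. Plxna2 read 219 and 313 in wild type against 131 and 77.6 in the knockout, lower in both knockout arrays, with a difference of -1.24 ± 0.39 (adjusted p = 0.134). Plxna3 read 107 and 100 in wild type against 129 and 98.0 in the knockout, an overlap with a 95% interval from -0.70 to 0.91. Plxna1 had a mean signal of 12.4 and was not tested. Of the 10 tested receptors of all kinds (plexins, neuropilins and Eph receptors), 0 passed in limma, while the unadjusted p was under 0.05 for 3 that were lower and 0 that were higher. Of all genes tested, 12.8% were lower and 7.72% higher at that unadjusted level, or 20.5% in all. Of the 14 tested ligands 2 passed, and at an unadjusted p under 0.05 there were 5 lower and 2 higher, against the same 12.8% and 7.72%. Whether ligands and receptors differ in this was not tested.

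Membrane-bound semaphorins differed in both directions, and of the 7 tested 1 rose, Sema6c, and 0 fell in limma, with 1 lower (Sema7a) and 2 higher (Sema6c and Sema4b) at an unadjusted p under 0.05, against 12.8% and 7.72% of all genes tested. Sema7a, a lipid-anchored semaphorin that binds plexin C1 and beta-1 integrins, read 1525 and 980 in wild type against 546 and 403 in the knockout. Both knockout arrays were lower, and the difference of -1.35 ± 0.39 did not pass, with adjusted p = 0.111. A dim second probe set of Sema7a read 19.7 and 27.7 against 24.4 and 3.63. Plxnc1, its plexin receptor, known as an inhibitor of melanocyte adhesion, read 654 and 1075 in wild type against 490 and 466 in the knockout. Its groups did not overlap, with a difference of -0.79 ± 0.39 and adjusted p = 0.280. A second bright Plxnc1 probe set was lower as well, at 418 and 436 against 206 and 338. Itgb1, the beta-1 integrin through which Sema7a also signals, read 1054 and 1606 in wild type against 412 and 383 in the knockout, a difference of -1.67 ± 0.38 with adjusted p = 0.0655. By their brightest probe sets the ligand and both of these receptors were each lower in both knockout arrays, and none of the 3 passed the test. Of all genes tested, 26.6% were lower in both knockout arrays.

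Sema6c, a transmembrane semaphorin, read 25.0 and 26.7 in wild type against 173 and 171 in the knockout. The arrays of each genotype lay close together, and the difference was 2.17 ± 0.36 (adjusted p = 0.0333). The wild-type signals are dim, and the 2 other probe sets of the gene did not show this rise. The second read 65.6 and 53.3 in wild type against 56.4 and 19.0 in the knockout, and the third 6.34 and 2.98 against 6.85 and 42.4. The call of Sema6c was lost without wild type 2 (adjusted p = 0.112), without the signal filter (0.187) and with every probe set by itself (0.0545). With the signal level applied to the mean of the log2 values, or with its probe sets averaged, Sema6c was no longer bright enough to test.

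Sema4b, a class 4 semaphorin, read 635 and 625 in wild type against 1282 and 1461 in the knockout. Both groups were tight and did not overlap, and the difference of 1.10 ± 0.36 did not pass, with adjusted p = 0.137. Its dim second probe set read 31.6 and 19.6 against 11.0 and 28.0. Plxnb2, a broad receptor for class 4 semaphorins, read 1094 and 684 in wild type against 1276 and 973 in the knockout, with overlap and a difference of 0.36 ± 0.39. Sema4d, a class 4 ligand known from immune cells and vessels, read 236 and 415 in wild type against 289 and 351 in the knockout, and its 95% interval ran from -0.86 to 0.90. Sema4f read 299 and 196 against 171 and 130, and Sema6b read 138 and 181 against 116 and 90.4. Both were lower without overlap, by -0.64 ± 0.38 and -0.55 ± 0.37, and neither passed. Sema4g overlapped, at 134 and 74.6 against 125 and 92.7.

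**Figure D3:**
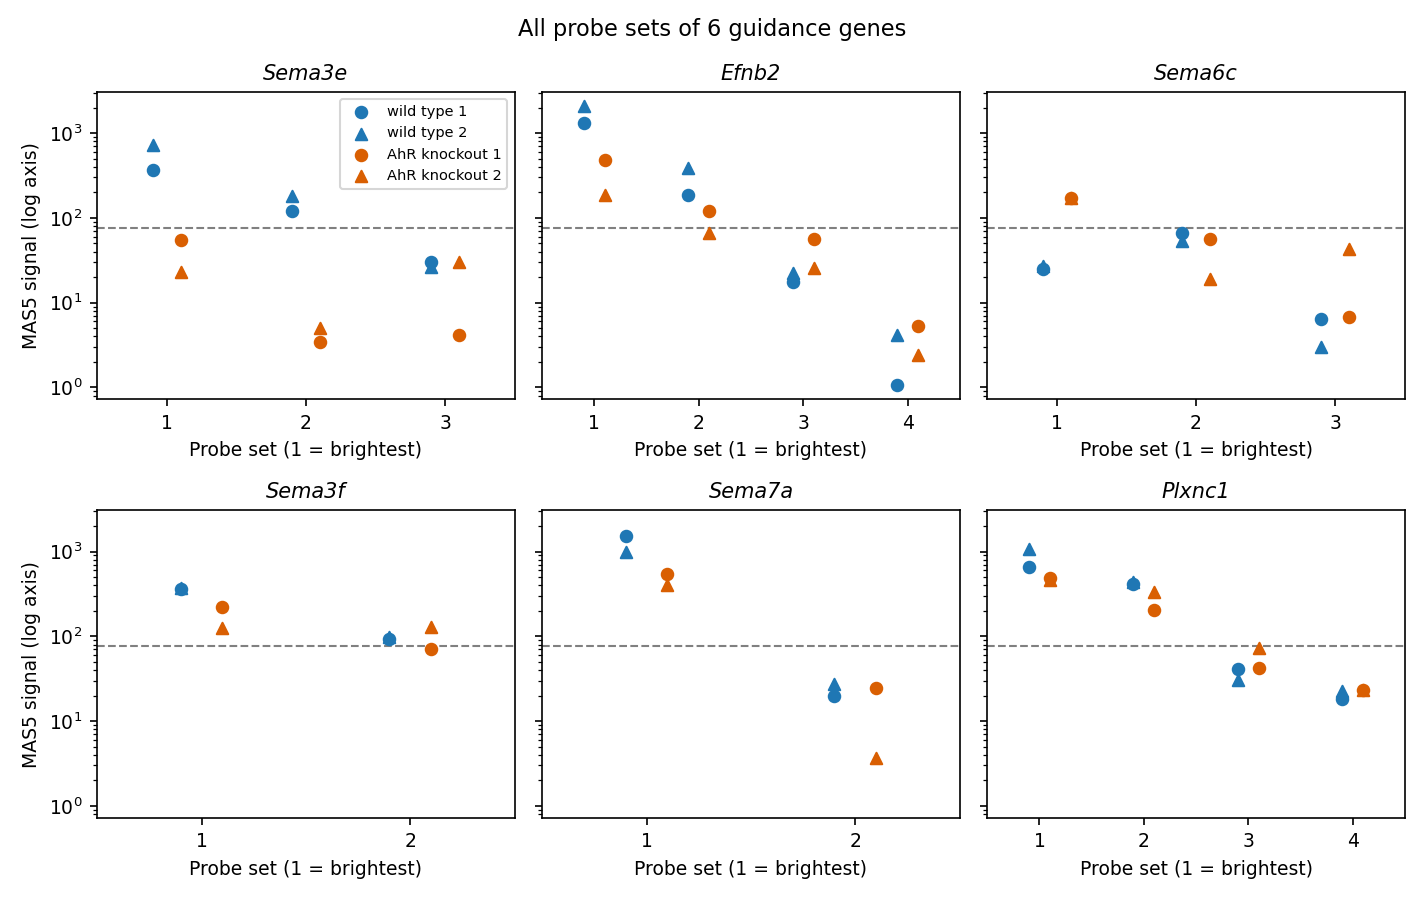
MAS5 signal (log axis) of all probe sets of 6 guidance genes, ranked by mean signal, each point an array, with the dashed line at 76. Both bright Sema3e probe sets and both bright Efnb2 probe sets are lower in the knockout, while the brightest Sema6c probe set alone shows the rise from about 26 to about 172.

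The second probe sets gave a further look at these genes. Of the 24 tested members, 14 had more than 1 probe set, and 7 of the further probe sets had a mean over 76. The difference had the same sign as in the brightest probe set for 6 of the 7, and Sema3f, at 0.0091, was the exception. That of Sema3e was among the 7 through its wild-type signals alone. Dimmer probe sets are left out of this count, and some had the other sign, such as the second of Sema6c. The matching share over all genes was not analysed here.

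Of the ephrins and Eph receptors 0 passed in limma, and Efnb2 and Epha2, both lower, had an unadjusted p under 0.05. Efnb2, the ephrin of arterial endothelium, read 1316 and 2088 in wild type against 485 and 185 in the knockout. The groups were far apart, a log2 difference of -2.40 ± 0.49, and Efnb2 narrowly missed the threshold with adjusted p = 0.0530. With all arrays kept, Efnb2 passed the 0.05 threshold with a pseudocount of 64 (0.0444) and with the animal number as a replicate block (1.95e-09). It missed that threshold in every other setting that kept all arrays. There its adjusted p ran from 0.0505 in the top 40% of genes to 0.2 without the signal filter. With an array left out, its difference lay between -3.06 (without AhR knockout 1) and -1.74 (without AhR knockout 2). The second Efnb2 probe set was also lower, at 187 and 386 in wild type against 120 and 66.0, while the third was dim and higher, at 17.7 and 22.6 against 55.7 and 25.8. Ephb4, the venous receptor of Efnb2, read 150 and 184 in wild type against 207 and 160 in the knockout. Its groups overlapped, with a 95% interval from -0.69 to 0.93, which leaves out a change as large as that measured for Efnb2.

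Epha2, a receptor for A ephrins that is active in epithelium and in melanoma, read 229 and 216 in wild type against 97.4 and 31.9 in the knockout. The difference of -1.69 ± 0.45 did not pass, with adjusted p = 0.0932, and was -1.07 for the first knockout array and -2.32 for the second. Efna1, its main ligand, read 179 and 184 in wild type against 216 and 119 in the knockout, on either side of the wild-type values. Ephb6, an Eph receptor without kinase activity, read 186 and 62.3 in wild type against 243 and 220 in the knockout, a difference of 0.98 ± 0.47 with adjusted p = 0.267. Efnb1 had 153 and 152 on the wild-type arrays and 189 and 256 on the knockout arrays, which did not overlap, with a difference of 0.49 ± 0.36.

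The 21 members below the signal level had means from 3.26 (Epha3) to 73.5 (Ephb3), and 17 of them were under 76 on every array. Ephb3 was the member just outside the level and Sema6c, at a mean of 99.0, the one just inside it. Most receptors for A ephrins were in the dim set, with Epha1, Epha3, Epha4, Epha5, Epha6, Epha7 and Epha8 at means from 3.26 to 38.3, as were Efna2, Efna3, Efna4 and Efna5. Whether such signals differ from background was not analysed here, since detection calls were not used. In 17 of the 21 the groups overlapped. Both knockout arrays were higher for Efnb3 (50.5 and 43.7 against 79.2 and 70.0), Efna4 (46.0 and 38.5 against 53.0 and 62.4) and Plxnb3 (32.6 and 50.2 against 78.9 and 65.2). Sema4a was lower, at 18.9 and 12.6 against 8.25 and 9.49. The other dim members were Sema3c, Sema5a, Sema5b, Sema6a, Sema6d and Plxna1.

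Among genes for proteins that carry these signals inside the cell or share receptors with them, 1 passed the test. The lists held 81 genes, of which 71 were measured and 54 tested. Of the 54, 34 were lower (63.0%), against 49.6% of all genes tested. Of 30 tested semaphorin partners 19 were lower and the median difference was -0.45 (log2), and 1 fell. That gene was Rnd3, an atypical small GTPase that loosens actin stress fibres, which read 494 and 707 in wild type against 148 and 84.7 in the knockout. Its log2 difference was -2.24 ± 0.40 with adjusted p = 0.0405, and the call was lost without wild type 2 (0.255), without the signal filter (0.192), with every probe set by itself (0.0678), among the top 40% of genes (0.0544) and under quantile normalization (0.0537). With every probe set by itself, Adam10 was the partner that passed in its place. Behind Rnd3 and Itgb1 came Dpysl3, a collapsin response protein of the cytoskeleton, at -1.59 ± 0.38 (adjusted p = 0.0738), and Ranbp9, a scaffold that binds plexin A, at -1.76 ± 0.47 (adjusted p = 0.0943). Rhoa and Rac1, the GTPases themselves, differed by -0.071 and -0.89, and Rac1 was low in AhR knockout 2 alone, at 1834 against 5424, 6373 and 5450. Met, Dpysl2 and Farp2 were too dim to test.

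Of 24 tested ephrin and Eph partners 15 were lower, with a median of -0.36. By limma 0 passed, and an unadjusted p under 0.05 was found for 6 that were lower and 1 that was higher, against 12.8% and 7.72% of all genes tested. Adam10, the protease that sheds ephrins, read 7795 and 11760 in wild type against 2594 and 5145 in the knockout, a difference of -1.39 ± 0.38 with adjusted p = 0.0985. The adaptors Crk and Nck1 differed by -1.21 and -1.43, and the exchange factor Vav3 by -1.62, each lower in both knockout arrays. Tiam1, an activator of Rac1, was the member that was higher at the unadjusted level, at 1.21 ± 0.47 with adjusted p = 0.193. It read 19.6 and 64 in wild type against 80.4 and 142.5 in the knockout. Tiam1 passed the signal filter through the knockout arrays alone. Vav3 and, in the semaphorin partner list, Flt1 passed it through the wild-type arrays alone. Tiam1, Vav3 and Flt1 therefore had to differ to be counted. Over both lists, 1 of 54 genes was called, against 0.968% of all genes tested. At least 2-fold different without overlap were 16 (29.6%), Tiam1 and Vav3 among them, against 14.6%.

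**Figure D4:**
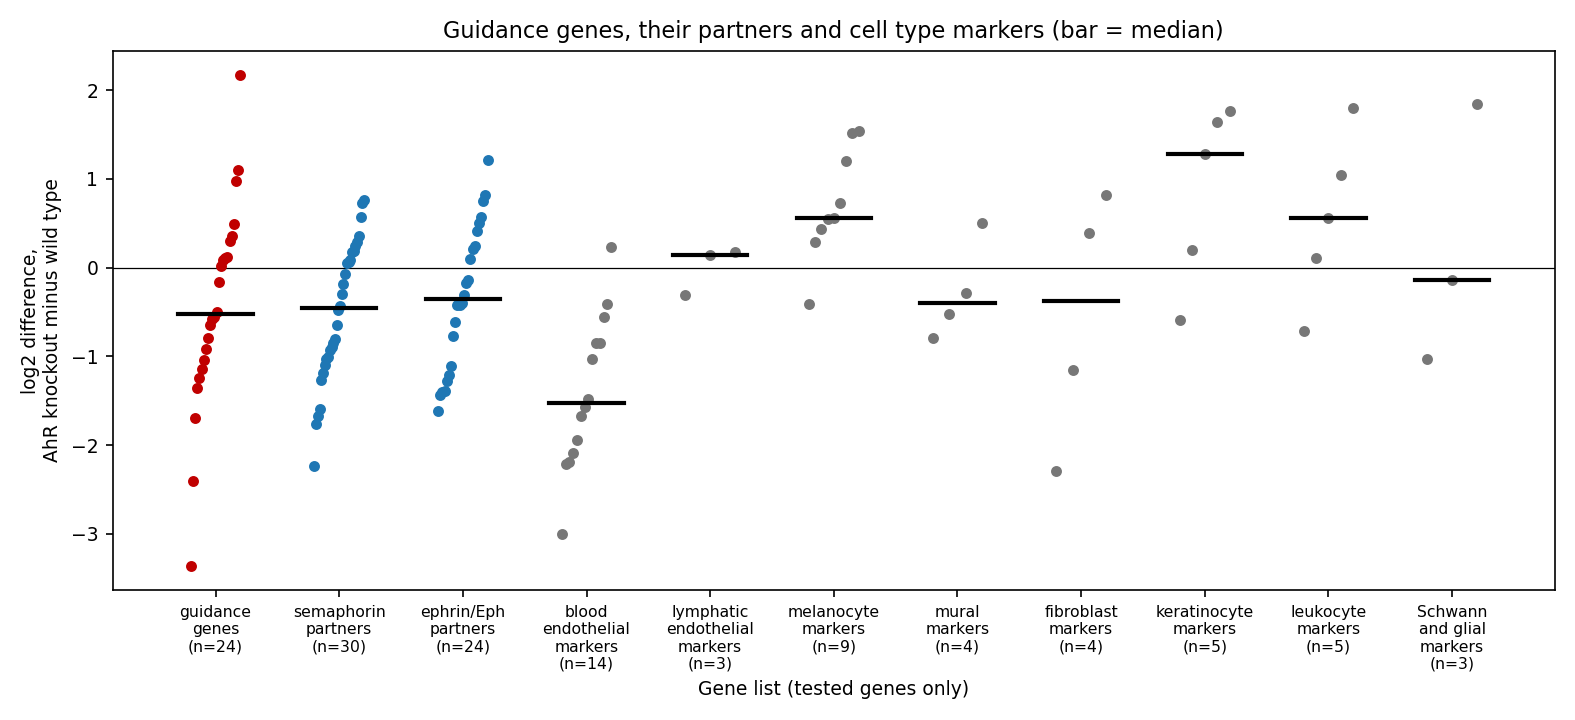
Log2 difference, AhR knockout minus wild type, of each tested gene in 11 lists, with a bar at the median. The guidance genes spread from -3.36 to 2.17 around a median of -0.53, and the blood endothelial markers lie lowest, with a median of -1.53.

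Markers of blood endothelium were lower in the same cultures. Of 14 tested blood endothelial markers 13 were lower and 1, Eng, was higher, while 49.6% of all genes tested were lower. Their median log2 difference was -1.53, or -0.84 for the first knockout array and -1.95 for the second. Sox17 fell, with adjusted p = 0.0473. Cdh5, the cadherin of endothelial junctions, read 3114 and 2970 in wild type against 1634 and 367 in the knockout. Vwf was at or near the floor on all arrays, between 1.40 and 25.8. Sema3e, Efnb2, Plxnd1 and Nrp1 are genes that endothelial cells are known to express. Their part in this shift was not tested. Sema3e, Efnb2, Plxnd1 and Epha2 had their lowest signal on AhR knockout 2, and so had Sema7a, Sema3f, Plxna2, Plxnc1, Sema4f, Sema6b, Efna1 and Plxna3. That array had the lowest summed endothelial signal and also the outlying Gapdh 3'/5' ratio of 11.9, and the part of either was not tested. Nrp1, Nrp2 and Sema3a were lowest on AhR knockout 1, and the other tested members on a wild-type array. Sema4b and Sema6c were higher on both knockout arrays than in wild type. Kdr and Flt1 stand both in the endothelial and in the semaphorin partner list, and Flt1 passed the signal filter through the wild-type arrays alone.

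The 3 tested markers of lymphatic endothelium (Flt4, Lyve1 and Pdpn) had overlapping groups and a median of 0.15. Prox1, the defining factor of that cell type, was between 16.7 and 24.3. Of all 7543 genes tested, 3801 were higher and 3742 lower. Of 9 tested melanocyte markers 8 were higher, with a median of 0.56 and 0 calls in limma. At an unadjusted p under 0.05 in limma 3 were higher, against 7.72% of all genes tested. The lower marker was Mitf, at 2771 and 2644 in wild type against 1668 and 2462 in the knockout, without overlap. Of 4 tested mural markers 3 were lower, and of 4 tested fibroblast markers 2 were lower. Col3a1 was called, while 0.742% of all genes tested fell. It read 372 and 439 in wild type against 95.1 and 50.5 in the knockout, where its mean was under 76. Col3a1 thus passed the signal filter through its wild-type mean alone, and Dcn and Fbln1, both higher, through their knockout mean alone. These had to differ to be counted. Of 5 tested keratinocyte markers 4 were higher, and of these Krt14, Krt5 and Krt6a passed the signal filter through AhR knockout 1 alone. The summed signal of all 8 measured keratinocyte markers was 1684 in AhR knockout 1 and between 438 and 566 on the other arrays. Of 5 tested leukocyte markers 4 were higher, and of these C1qb passed the signal filter through the knockout arrays alone. Among 3 tested Schwann and glial markers 1 was higher. The part of these cells in the guidance genes was not tested.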

How the data were processed

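Melanocyte RNA of 4 mice, 2 of each genotype, was measured on Affymetrix arrays of a single colour after amplification and biotin labelling (per the labels' protocols). The authors deposited a linear signal intensity for each probe set. It was made with MAS5 of unstated version, per the submitters' processing notes. Such scaling divides out a shift common to all transcripts. The arrays have 22690 probe sets. Leaving out 64 controls, the annotation gave 20380 of them a single gene symbol, 691 several and 1555 none, and genes were named only from single symbols, updated through gene identifiers to RefSeq GRCm38.p6 (20351 found).

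The brightest probe set stood for a gene. Values were converted to log2(signal + 16), genes with mean signal over 76 were tested, and groups were compared with limma 3.58.1 (lmFit, eBayes with trend) in R 4.3.3. Benjamini-Hochberg adjustment covered 7543 genes, and the threshold was 0.05. The fit was tested on simulated data. Figures used matplotlib 3.10.9 in Python 3.11.15.

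The members and lists were chosen with earlier results of these data known. Values on each array are given for members that passed, or differed at least 2-fold without overlap, for their ligands or receptors, and, chosen after their values were seen, for other members. Of the partners, those that passed and up to 4 of each list by smallest p are named; Rhoa, Rac1, Met, Dpysl2, Farp2 and Tiam1 were added after their values were seen.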

Additional observations from a re-analysis of the deposited data

How the results depend on the processing

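The count of guidance genes called, 2 of 24, was 2 or 3 with array medians set equal, with quantile normalization, with a pseudocount of 1 or of 64 and with both other eBayes forms. It was 0 without the signal filter, where 9 of 45 had an unadjusted p under 0.05 in limma, and 0 of 10 in the top 40% of genes, where 4 had. It was 1 with the mean of probe sets, 1 with every probe set by itself and 1 with the filter on the mean of log2 values, which was chosen after seeing the data, and 4 at an adjusted p under 0.10. Leaving out an array gave between 1 (without wild type 2) and 9 (without AhR knockout 1) calls. In such fits the lone array is assumed to vary like the other group.

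The count over all genes, 73, became 34 under quantile normalization, 1 without the filter, 20 in the top 40%, 24 with every probe set and 369 at an adjusted p under 0.10, and ran from 25 to 1362 with an array left out. With equal array medians 24 of 72 calls were rises, against 17 of 73 as deposited. The count of partner genes, 1, became 0 under quantile normalization (20 at an unadjusted p under 0.05 in limma), 0 without the filter (17), 0 in the top 40% (11) and 5 at an adjusted p under 0.10, and ran from 0 to 16 with an array left out.

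The labels number the animals 1 and 2 in both groups without saying that they pair. Across 7543 genes, the deviations of same-numbered arrays from their group means correlated at 0.351. With 2 arrays in a group, crossed numbers must give the mirror value, -0.351. The correlation therefore cannot decide whether the numbers pair the animals. With the number as a replicate block, 10 guidance genes, 18 partner genes and 1414 genes in all were called.

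In every alternative that tested it, Sema3e kept its direction, between -3.84 and -2.53, as did Efnb2, between -3.06 and -1.74. Sema6c lay between 1.39 and 2.69 in the 14 alternatives that tested it, and had no value with the mean of probe sets, in the top 40% or with the filter on the mean of log2 values. Sema3b, Sema4d, Sema4g, Nrp1, Plxna3, Efna1 and Ephb4 changed sign when a single array was left out, and none of these had passed. Arrays give no count depth, and dim members rest on signals whose distance from background was not analysed here.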
